A study of Mus musculus with 10 samples.

Results

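Glutamate is the main excitatory transmitter of the retina, and 31 genes that receive it or carry it were followed in mouse retina. They were taken by gene symbol from a table of 25905 genes and comprise 4 AMPA, 7 NMDA, 5 kainate, 1 delta and 6 metabotropic receptor genes, 5 transporters of the plasma membrane and 3 of synaptic vesicles. The tissue was retina of wild-type C57BL/6J mice at postnatal day 34. Each of 5 mice, numbered 61, 64, 65, 66 and 68, wore a goggle with a −20 dioptre lens before 1 eye for 10 days from postnatal day 24, which drives the eye towards myopia, while its other eye wore none. The groups are 5 right retinas and 5 left retinas, and every group holds eyes of mice that carried a lens. Side is labelled and lens is not, so no retina is called lens-treated, and an effect of the lens cannot be told apart from one of the side.

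In the outer retina photoreceptors release glutamate steadily in darkness and less of it in light. Cells that respond to light decrements detect it with AMPA and kainate receptors, which are ion channels built of 4 subunits, and amacrine and ganglion cells of the inner retina use AMPA and NMDA receptors. Metabotropic receptors couple to G proteins, and many sit on the releasing terminal itself. Vesicular transporters load glutamate for release, and plasma membrane transporters of neurons and Müller glia take it up again.

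Values are CPM, counts scaled to the size of the library, which are not divided by gene length. Libraries were made from total RNA after removal of ribosomal RNA, and they held 29600000 to 37100000 counts in listed genes, inferred from the spacing of low values, and 1 CPM then stood for 89.2 to 113 counts. Summed rod markers stood at 10100 to 10650 CPM in right retinas and 9892 to 11650 CPM in left retinas. Summed lens markers (9 of 9 listed) ran from 24.8 to 805.4 CPM in right retinas and from 7.56 to 46.7 CPM in left retinas, with the highest sum in the right retina of mouse 65. Skeletal muscle markers (8 of 8 listed) summed to 27.4 to 32.9 CPM in right retinas and 26.7 to 268.1 CPM in left retinas, with the highest sum in the left retina of mouse 68. These 2 retinas stand apart in the markers of other tissues, and the labels report damaged raw reads for the right retina of mouse 64. In whole retina a change in the number of cells of a type and a change in RNA per cell cannot be told apart.

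The sequence before the start of 4 members is shown because they mark the ends and the exceptions of what follows. Slc17a7 is the member of highest level per length, and Slc1a3 the transporter gene of Müller glia. Slc1a7 had the highest coefficient of variation (SD over mean) between retinas among the members above the test's filter, and Grin3b had the lowest level. The 250 bases before the RefSeq start are given on GRCm38.p6, 5′ to 3′ on the strand of the gene. Capitals mark a match, on either strand, to GGGCGG (the GC box), TATAAA (the TATA box) or TAATCC (a core bound by the photoreceptor factor CRX), and neighbouring matches can run together.
Slc1a3 (chr15:8710808-8711057, minus strand): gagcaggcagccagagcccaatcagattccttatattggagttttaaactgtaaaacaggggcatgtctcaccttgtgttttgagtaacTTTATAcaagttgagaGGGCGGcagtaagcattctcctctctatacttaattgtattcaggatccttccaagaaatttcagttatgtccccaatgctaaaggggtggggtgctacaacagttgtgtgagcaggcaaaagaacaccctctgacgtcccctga
Slc17a7 (chr7:45163671-45163920, plus strand): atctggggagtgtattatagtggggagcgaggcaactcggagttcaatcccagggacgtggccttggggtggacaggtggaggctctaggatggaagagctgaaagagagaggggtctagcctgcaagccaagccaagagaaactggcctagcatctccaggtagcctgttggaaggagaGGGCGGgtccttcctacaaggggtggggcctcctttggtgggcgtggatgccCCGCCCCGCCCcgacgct
Slc1a7 (chr4:107968156-107968405, plus strand): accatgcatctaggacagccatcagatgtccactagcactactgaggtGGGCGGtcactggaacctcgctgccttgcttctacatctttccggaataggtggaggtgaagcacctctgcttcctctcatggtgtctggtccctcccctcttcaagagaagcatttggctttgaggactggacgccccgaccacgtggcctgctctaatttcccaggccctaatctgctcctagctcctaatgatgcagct
Grin3b (chr10:79970474-79970723, plus strand): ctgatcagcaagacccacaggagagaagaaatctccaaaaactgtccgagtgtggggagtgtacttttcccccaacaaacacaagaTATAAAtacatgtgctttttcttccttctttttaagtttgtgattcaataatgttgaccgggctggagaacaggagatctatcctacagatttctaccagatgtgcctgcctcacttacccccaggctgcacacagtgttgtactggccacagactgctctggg

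Among the members, 22 had at least 1 RefSeq promoter window of this length, with 27 windows in all, out of 32851 windows of the whole table. The GC box was in 15 of the 27 windows, against 32.7% of all windows. The window of Slc17a7 held 3 of them, the last 2 in overlap, and those of Slc1a7 and Slc1a3 held 1 each. TATAAA was in 2 member windows, those of Grin3b and Slc1a3, against 12.4% of all windows. TAATCC was in none of the 27 and in 6.25% of all. A match describes these letters and is not evidence of binding.

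Levels of different genes were compared as CPM per kb of exonic length (union of the GENCODE M21 exons). On that scale the members spanned from 39.7 ± 2.93 CPM per kb for Slc17a7 down to 0.043 ± 0.015 CPM per kb for Grin3b (SD over the 10 retinas), and 21 of the 31 reached 1 CPM per kb. The order is clear only in steps: of the 30 pairs of neighbours in it, 22 had ranges over the 10 retinas that overlapped. The top is set by transporters. Slc17a7, which encodes VGLUT1, the vesicular transporter of photoreceptors and bipolar cells, lay apart from Slc1a2, and Slc1a2 at 16.5 ± 0.517 CPM per kb lay apart from everything below. Next came Slc1a7 (8.14 ± 1.15), Gria4 (7.13 ± 0.12), Slc1a3 (6.69 ± 0.267), Gria2 (6.41 ± 0.146) and Grik1 (5.88 ± 0.206), each in CPM per kb and each overlapping its neighbours among these 5 in range. The place of a gene in this stretch depends on its assigned length: with the longest transcript as length, Slc1a3 (12.9), Grik1 (10.8) and Gria2 (9.61 CPM per kb) stood above Slc1a7 (9.09) and Gria4 (8.26).

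**Figure D1:**
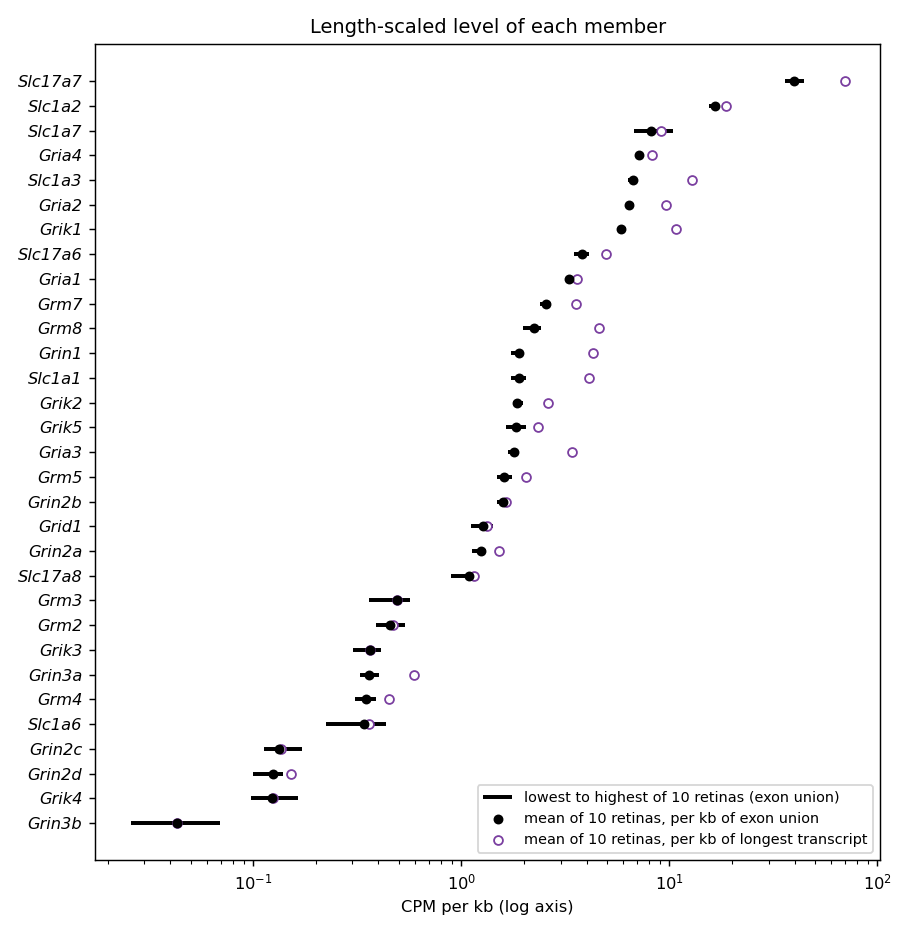
CPM per kb (log axis) of each member, with the mean (black point) and the lowest to highest of 10 retinas (bar) per kb of the exon union, and the mean per kb of the longest transcript (open point). Slc17a7 and Slc1a2 stand above the rest under both lengths, and Grin3b is lowest under both.

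AMPA receptors carry the fast excitatory current, and all 4 subunit genes were present and steady. Gria4 (chromosome 9, bases 4417896 to 4796234, minus strand of GRCm38) measured 44.2, 44.1, 44.8, 45.8 and 45.7 CPM in the right retinas of mice 61, 64, 65, 66 and 68. In the left retinas of the same mice it measured 44.9, 44.1, 45.1, 46.2 and 44.4 CPM. All 10 values lie within 1.05-fold, and the sides overlap. Gria2, the subunit whose edited form keeps calcium out of the channel, averaged 99.5 ± 0.854 CPM in right retinas and 99.8 ± 3.28 CPM in left retinas (SD, n = 5 each). Gria1 averaged 19.8 ± 0.24 and 20.1 ± 0.932 CPM on the right and left, and Gria3, on the X chromosome, 17.7 ± 0.673 and 17.7 ± 0.666 CPM. Per length, Gria4 and Gria2 made up most of the class: Gria4 was 38.3% ± 0.501 of its summed level in right retinas and 38.2% ± 0.282 in left retinas, and Gria2 34.4% ± 0.372 and 34.4% ± 0.695. Which of these leads depends on the length used, as the longest transcripts gave Gria2 38.6% and Gria4 33.2%.

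NMDA receptors need Grin1, the subunit present in every receptor of the class, beside Grin2 or Grin3 subunits. Grin1 (chromosome 2, bases 25291181 to 25319187, minus strand) stood at 17.8, 18.4, 19.1, 19.1 and 19.0 CPM in the right retinas of mice 61 to 68, against 17.0, 16.9, 18.0, 19.1 and 19.2 CPM in the left ones. It was higher on the right in 3 of 5 mice, and the sides overlap. The gene shares 13.5% of its exonic bases with an annotated antisense gene, and whether the authors counted by strand is not given in the sources used here. Of the Grin2 subunits that set how long the channel stays open, Grin2b and Grin2a were the ones at substantial levels. Grin2b (chromosome 6, bases 135713233 to 136173511, minus strand) had 37.0, 40.8, 40.7, 41.5 and 39.3 CPM in right retinas and 37.2, 37.7, 38.8, 42.0 and 38.1 CPM in left retinas. Grin2a averaged 22.4 ± 0.83 CPM in right retinas and 22.0 ± 1.12 CPM in left retinas. Grin3a, a subunit that lowers calcium entry, averaged 4.32 ± 0.288 and 4.55 ± 0.334 CPM on the right and left. Per length, Grin1 was 35.4% ± 0.678 of the class total on the right and 35.0% ± 0.868 on the left. Grin2b (29.5% and 29.4%) and Grin2a (23.0% and 23.1%) followed. These shares depend on the length used, as the longest transcripts gave Grin1 51.3%, Grin2b 19.5% and Grin2a 18.1%. The other Grin2 genes were rare: Grin2c ranged from 0.573 to 0.724 CPM in right retinas and from 0.569 to 0.861 CPM in left retinas, and Grin2d from 0.766 to 0.923 and from 0.666 to 0.891 CPM. Grin3b lay between 0.0891 and 0.228 CPM on the right and between 0.085 and 0.183 CPM on the left, which is 8 to 26 implied counts per library, and 32.1% of its exonic bases overlap a gene on the other strand, Tmem259.

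Of the kainate receptor genes, Grik1 had the highest level per length; it encodes a subunit known from bipolar cells that respond to light decrements. Grik1 (chromosome 16, bases 87895900 to 88290265, minus strand) had 38.1, 37.9, 40.1, 38.6 and 41.7 CPM in the right retinas of mice 61 to 68 and 39.0, 37.9, 40.1, 41.1 and 40.6 CPM in the left ones. The sides overlap, and in mice 64 and 65 the eyes were nearly equal. Per length it was 58.2% ± 0.687 of the class total in right retinas and 58.6% ± 1.23 in left retinas. With the longest transcripts as lengths its share over all retinas was 66.5%. Grik2 averaged 25.0 ± 0.687 and 24.3 ± 1.06 CPM on the right and left, Grik3 3.30 ± 0.261 and 3.24 ± 0.308 CPM, and Grik5 9.36 ± 0.645 and 9.60 ± 0.874 CPM. Grik5 and Grik4 encode the subunits that form channels only together with the other three. Grik4 lay between 0.668 and 0.974 CPM in right retinas and between 0.583 and 0.797 CPM in left retinas.

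Grid1 encodes the delta 1 subunit, which resembles an ion channel subunit but acts as a synaptic organiser that binds cerebellins. It (chromosome 14, bases 34820108 to 35583379, plus strand) had 7.64, 7.31, 7.81, 8.46 and 6.75 CPM in the right retinas of mice 61 to 68, against 8.06, 8.05, 6.92, 6.67 and 7.96 CPM in the left ones. The right retina was higher in mice 65 and 66 and lower in the other 3.

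**Figure D2:**
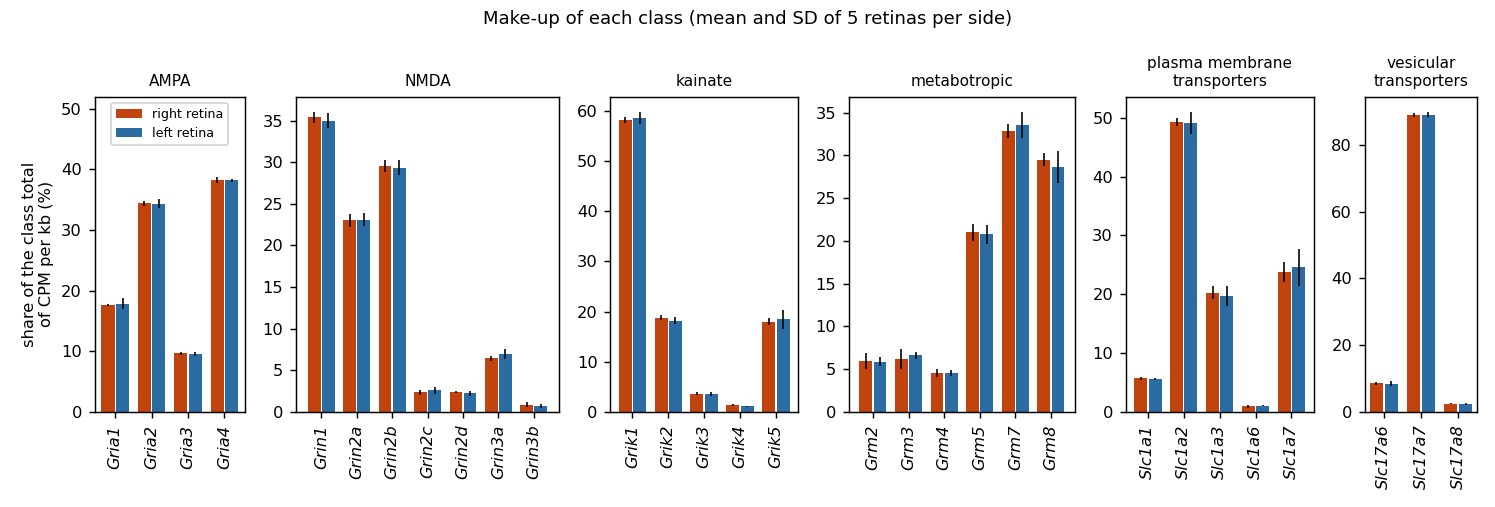
Share of each member in its class's summed CPM per kb (percent; each panel has its own axis from 0), as mean and SD of 5 right and 5 left retinas. Slc17a7 takes 88.9% of the vesicular class on the right and 89.1% on the left, and in every panel the bars of the sides differ little next to the differences between genes.

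Of the metabotropic receptor genes 6 were among the members, and the rest of the family is not analysed here, so ranks and shares hold within these 6. Among them Grm7 and Grm8, which encode receptors of releasing terminals, and Grm5, which couples to calcium release, stood above the other members in level per length. Grm7 (chromosome 6, bases 110645581 to 111567230, plus strand) had 15.4, 14.5, 15.0, 14.9 and 14.6 CPM in right retinas and 14.1, 16.0, 15.2, 15.4 and 15.1 CPM in left retinas of mice 61 to 68. Its right value was the higher one in mouse 61 alone, and the sides overlap. Grm8 averaged 22.5 ± 0.818 CPM in right retinas and 21.8 ± 1.64 CPM in left retinas, and Grm5 16.6 ± 1.06 and 16.3 ± 0.982 CPM. Per length, Grm7, Grm8 and Grm5 were 32.9%, 29.5% and 21.0% of the summed members on the right and 33.6%, 28.6% and 20.8% on the left. With the longest transcripts as lengths Grm8 led with 39.6% and Grm7 followed with 30.7%. Grm2, Grm3 and Grm4, which lower cyclic AMP, averaged 2.23 ± 0.348, 1.45 ± 0.256 and 2.09 ± 0.176 CPM in right retinas and 2.21 ± 0.234, 1.55 ± 0.121 and 2.07 ± 0.112 CPM in left retinas.

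Of the plasma membrane transporter genes, Slc1a2 had the highest level per length; it encodes GLT-1, known in retina from cones and bipolar cells. Slc1a2 (chromosome 2, bases 102658659 to 102790784, plus strand) had 217.2, 214.8, 214.5, 223.8 and 213.4 CPM in the right retinas of mice 61 to 68 and 224.6, 224.8, 208.5, 219.0 and 204.6 CPM in the left ones. The right retina led in 3 mice, and all 10 values lie within 1.1-fold. Slc1a3, which encodes GLAST of Müller glia (chromosome 15, bases 8634124 to 8710764, minus strand), had 54.5, 59.5, 57.1, 58.7 and 59.8 CPM in right retinas and 54.3, 54.3, 55.4, 59.2 and 58.4 CPM in left retinas. It was higher on the right in 4 of 5 mice, though the sides overlap. The 6 other Müller glia markers, Glul among them, were in sum above the left eye in the right eye of mice 65, 66 and 68 (766.8, 706.7 and 769.7 CPM, against 676.2, 652.6 and 739.7 CPM on the left) and lower in mice 61 and 64 (729.6 and 725.3 CPM on the right, against 797.4 and 775.0 CPM on the left). Glul alone made up most of each sum, with 579.4 to 643.1 CPM in right retinas and 532.8 to 660.7 CPM in left retinas. The sums therefore give mainly the pattern of Glul. The part of these markers in the values of Slc1a3 was not tested. Slc1a1, the transporter EAAC1 of inner retinal neurons, averaged 15.7 ± 0.679 CPM in right retinas and 15.5 ± 1.12 CPM in left retinas, with 31.9% of its exonic bases shared with a gene on the other strand. Slc1a6, best known from Purkinje cells of the cerebellum, ranged from 0.481 to 0.881 CPM on the right and from 0.655 to 0.939 CPM on the left.

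Slc1a7 encodes EAAT5, a transporter of photoreceptor and rod bipolar terminals that also passes chloride. It (chromosome 4, bases 107968332 to 108013532, plus strand) measured 30.3, 24.3, 25.0, 28.3 and 26.2 CPM in the right retinas of mice 61, 64, 65, 66 and 68, against 35.0, 30.4, 23.1, 22.7 and 28.1 CPM in the left ones. Mouse 61 had the highest value on each side, and the right eye led in mice 65 and 66 and the left eye in the other 3. The coefficient of variation over the 10 retinas was 14.1%, the highest of the 26 members whose mean was at least 1 CPM, where the median was 5.41%. Among all 14210 genes of that mean, which were on average less strongly expressed, the median was 9.02%. Among genes averaging 5 CPM or more the medians were 4.65% for members and 7.15% for all, with levels still unequal (median 22.1 CPM for members and 14.8 CPM for all).

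Slc17a7 (chromosome 7, bases 45163949 to 45176142, plus strand) had the highest level per length of the vesicular transporter genes. Its values were 193.2, 194.3, 231.9, 218.2 and 221.9 CPM in the right retinas of mice 61 to 68 and 209.1, 220.1, 213.4, 197.5 and 240.3 CPM in the left ones. The right retina was higher in mice 65 and 66, the same mice as for Slc1a7. Slc17a6, the VGLUT2 gene typical of ganglion cells, averaged 20.4 ± 0.89 CPM on the right and 20.5 ± 1.30 CPM on the left. Slc17a8, the VGLUT3 gene of a small group of amacrine cells (chromosome 10, bases 89574020 to 89621253, minus strand), had 4.99, 4.95, 5.57, 4.74 and 5.66 CPM in right retinas and 4.22, 5.42, 5.45, 4.88 and 5.69 CPM in left retinas. Per length, Slc17a6 and Slc17a8 were 8.57% and 2.49% of the class on the right and 8.48% and 2.42% on the left.

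**Figure D3:**
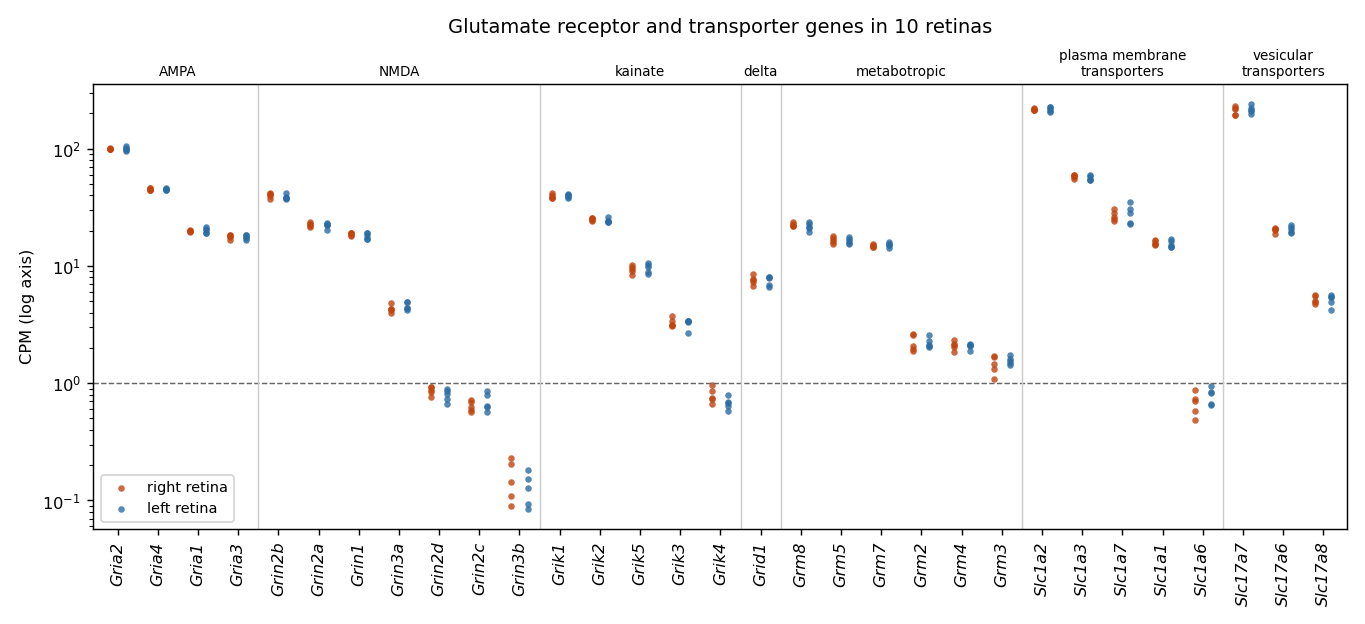
CPM (log axis, not divided by length) of the 31 members in 5 right and 5 left retinas, 1 point per retina, grouped by class, with a dashed line at the filter of 1 CPM. Grin3b spreads widest, with its highest value 2.69-fold its lowest. Slc1a6 (1.95-fold), Grik4 (1.67-fold), Grm3 (1.58-fold) and Slc1a7 (1.54-fold) follow, and the sides overlap for every member.

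The comparison of right with left asks whether the side mattered, and no member passed its test. Values were taken as log2(CPM + 1), a scale that understates changes of rare genes, and fitted with limma with the mouse as a block. Benjamini-Hochberg adjustment was over the 14210 genes that averaged 1 CPM or more, which include 26 of the 31 members. None of the 26 passed an adjusted p of 0.05 and none was below 0.05 unadjusted, in a table where 0% of genes passed and 333 had an unadjusted p below 0.05. The differences, right minus left, were above 0 for 14 members and below 0 for 12, with a median of 0.0053 log2 units, beside 0.0017 over all genes tested. None of the 26 went the same way in all 5 mice, and none had sides that did not overlap, beside 4.79% and 0.289% of all tested genes.

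The intervals say what size of difference these data leave room for. The 95% interval of the difference lay within ±0.2 log2 units, a change of up to 14.9% in CPM + 1, for 23 of the 26 members and for 62% of all genes tested. Among genes averaging 5 CPM or more it did so for 20 of 21 members and 80.8% of genes, with median levels of 22.1 and 14.8 CPM. Gria4 and Gria2 had the narrowest intervals: Gria4 differed by −0.00096 (95% interval −0.072 to 0.07) and Gria2 by −0.0034 (−0.075 to 0.068). The lowest unadjusted p belonged to Slc1a3, Grin1 and Grin2b, and none of them passed. Slc1a3 differed by 0.04 (SE 0.034, 95% interval −0.036 to 0.115; limma adjusted p = 0.9996), Grin1 by 0.046 (SE 0.04, −0.043 to 0.136) and Grin2b by 0.039 (SE 0.035, −0.039 to 0.118). The intervals that passed beyond ±0.2 were those of Grm3 (−0.066, −0.261 to 0.13), Slc1a7 (−0.04, −0.215 to 0.134) and Grin3a (−0.062, −0.212 to 0.089). The 5 members under the filter were fitted only when all genes were admitted, and their differences were 0.097 for Grik4, 0.057 for Grin2d, 0.035 for Grin3b, −0.044 for Grin2c and −0.093 for Slc1a6, with limma adjusted p = 0.9996 for each. Missing the threshold is no proof of equal levels.

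**Figure D4:**
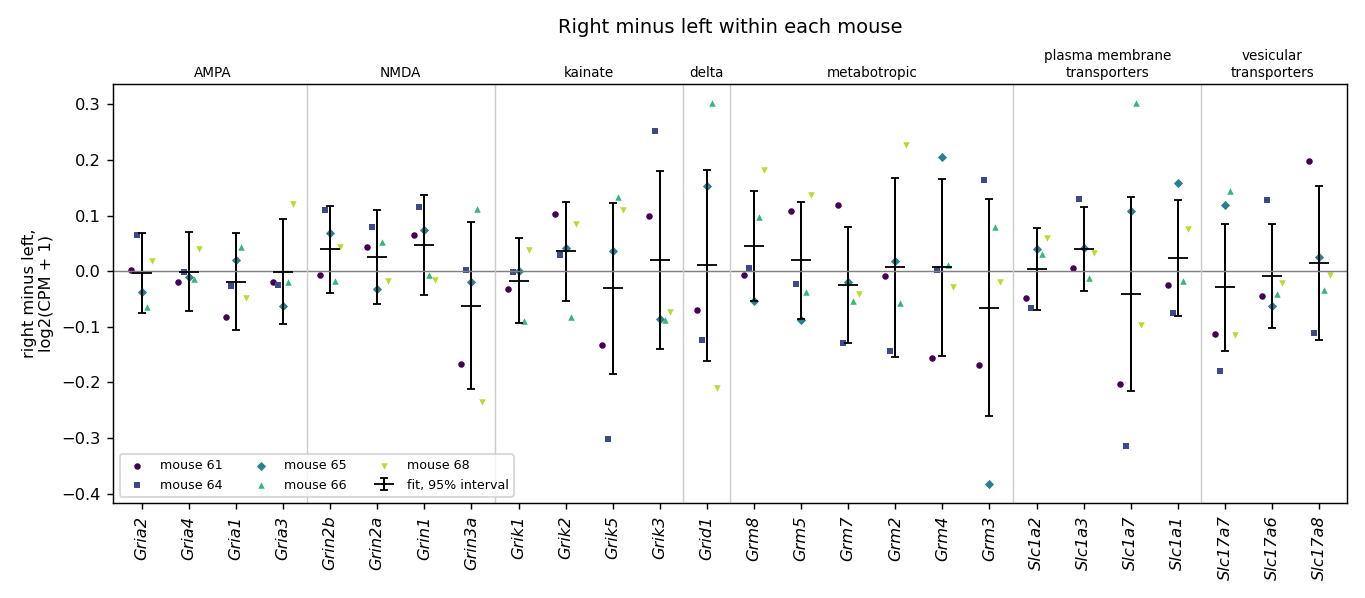
Right minus left on the log2(CPM + 1) scale for the 26 tested members, with 1 point per mouse and the fitted difference with its 95% interval in black. Every interval spans 0, and no member has all 5 mice on 1 side of 0.

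Mice were compared next, since both retinas of a mouse share its history. Limma's F-test over the mouse terms called 0.570% of all genes and none of the 26 members, none of which had an unadjusted p below 0.05, against 1964 of 14210 genes. Slc1a7 came nearest, with a range of mouse means of 0.42 log2 units (limma adjusted p = 0.37). Without mouse 61 that range was 0.17. Slc17a8 (range 0.26, adjusted p = 0.446) and Grin2b (range 0.17, adjusted p = 0.45) followed in the same limma fit. The median range over the members was 0.13, beside 0.21 over all genes tested.

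Since 1 eye of each mouse wore the lens, fellow eyes were also compared whichever the side. The test squares and averages the differences of the 5 pairs and sets the result against genes of like level. It called 0.338% of all genes, among them 6 of 7 tested lens markers and 5 of 5 tested skeletal muscle markers. None of the 26 members was called, and 1 member had an unadjusted p below 0.05. That was Slc1a7, whose fellow eyes differed by 0.22 log2 units in root mean square (adjusted p = 0.905 in the F-test across all genes). Its differences were −0.20, −0.31, 0.11, 0.30 and −0.10 in mice 61, 64, 65, 66 and 68. Slc17a7 (root mean square 0.14) and Grid1 (0.19) were next, with adjusted p = 0.987 for both in the F-test across all genes. The median over the members was 0.086 log2 units, beside 0.131 over all genes tested. The members were on average more strongly expressed, with a median of 19.2 CPM against 7.66 CPM. Among genes of at least 5 CPM the medians were 0.07 for members and 0.112 for all. Members were still the more strongly expressed there, with a median of 22.1 CPM against 14.8 CPM, so the levels were not matched.

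Library properties moved with Slc1a7. All listed genes together summed to 334460, 322042, 331746, 327419 and 324914 CPM in the right retinas of mice 61, 64, 65, 66 and 68, against 346696, 332076, 325431, 321661 and 329573 CPM in the left ones. The difference of this sum had the same sign as that of Slc1a7 in all 5 mice. It also had the same sign as that of Gria1, Grid1 and Slc17a7, and the opposite sign to that of Gria2. That makes 4 of 26 members (15.4%) with the same sign throughout, against 17% of all genes, and 1 (3.85%) with the opposite sign, against 5.9%. Marker sums of several cell types moved in part with it too. The 5 cone markers summed to 253.3, 195.2, 224.8, 237.8 and 233.8 CPM in right retinas and 283.1, 233.1, 211.8, 204.8 and 227.1 CPM in left retinas of mice 61, 64, 65, 66 and 68. The 6 rod markers summed to 10100, 10410, 10400, 10520 and 10650 CPM in right retinas and 10980, 11650, 9939, 9892 and 10280 CPM in left retinas. Both sums had the sign of Slc1a7 in mice 61, 64, 65 and 66 and the opposite sign in mouse 68. The sum of Müller glia markers given above did the same, so this pattern was not particular to photoreceptors. The 7 bipolar cell markers summed to 362.8, 376.9, 375.8, 371.8 and 383.7 CPM in right retinas. In left retinas they summed to 376.9, 361.6, 388.4, 378.5 and 384.1 CPM. Their sum had the sign of Slc1a7 in mice 61 and 68 and the opposite sign in mice 64, 65 and 66. These patterns were looked for after the values were seen, and the part of the sums in the values of Slc1a7 was not tested. With libraries rescaled to a common median ratio the root mean square of Slc1a7 was 0.19.

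**Figure D5:**
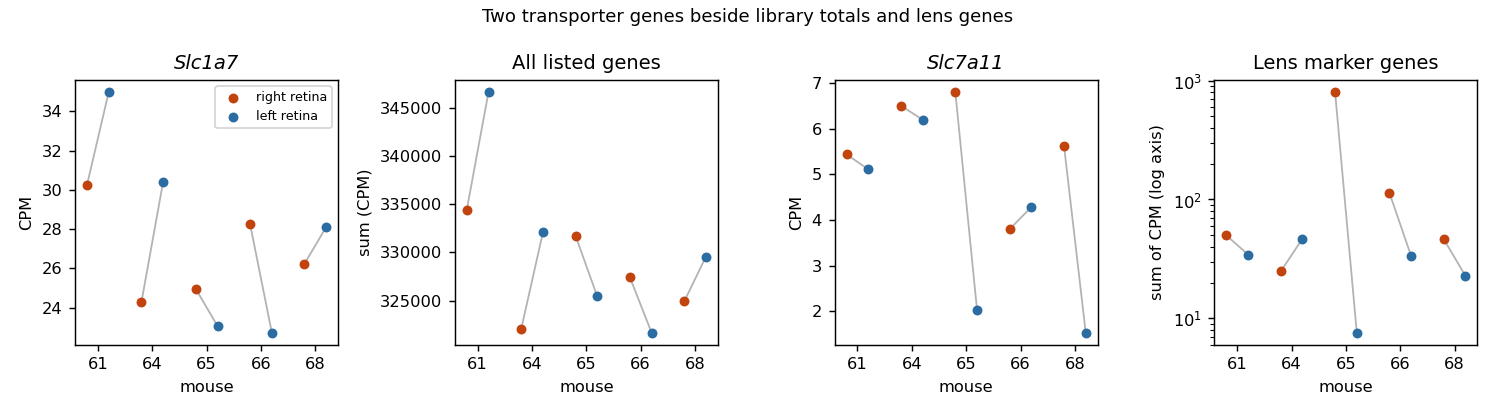
For each mouse, right and left retina joined by a line: CPM of Slc1a7, the sum of all listed genes in CPM, CPM of Slc7a11, and the summed CPM of 9 lens markers (log axis). Slc1a7 and the sum of listed genes slope the same way in each of the 5 mice, and Slc7a11 is lowest in the left retinas of mice 65 and 68. Axes of the first 3 panels do not start at 0.

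The partners of these receptors and transporters were read from 2 lists. Of 37 genes for auxiliary subunits and anchors at glutamate synapses, 35 were tested and none passed in any of the 3 tests. Their right-minus-left differences were above 0 for 10 and below 0 for 25, with a median of −0.022 log2 units, beside 7266 above and 6944 below 0 and a median of 0.0017 over all genes tested. Of the 35, 3 went the same way in all 5 mice, beside 681 of 14210 genes tested (4.79%). Whether 3 of 35 exceeds that share was not tested, and 1 gene weighs heavily in so short a list. Dlg4 was lower on the right, while Dlg3 (0.072, SE 0.042) and Homer2 (0.087, SE 0.049), a scaffold and a relative of Homer1 named after their values were seen, were higher, each with limma adjusted p = 0.9996. Dlg4, the scaffold PSD-95, had 147.3, 161.3, 171.8, 166.3 and 166.9 CPM in the right retinas of mice 61, 64, 65, 66 and 68 and 161.6, 166.2, 175.6, 176.2 and 177.0 CPM in the left ones. The right value was the lower one in all 5 mice, though the sides overlap and the test was not passed (−0.075, SE 0.031; limma adjusted p = 0.9996, and 0.327 between mice). Nptxr, a receptor for pentraxins that gather AMPA receptors, had 9.83, 10.4, 11.4, 11.4 and 11.03 CPM in right retinas and 11.7, 12.9, 11.7, 11.04 and 12.2 CPM in left retinas of the same mice. It was lower on the right in 4 of 5 (−0.13, SE 0.057; limma adjusted p = 0.9996). Homer1, a scaffold of metabotropic receptors with an activity-induced short form, came nearest to a difference between mice. It had 31.9, 26.0, 27.4, 25.2 and 26.8 CPM in the right retinas of mice 61, 64, 65, 66 and 68 and 31.7, 25.9, 30.0, 25.4 and 26.8 CPM in the left ones, highest in mouse 61 on each side (limma F-test adjusted p = 0.165). Cacng7, an auxiliary AMPA subunit, had 10.4, 13.9, 12.7, 13.5 and 12.6 CPM in right retinas and 11.1, 13.3, 13.4, 14.5 and 12.0 CPM in left retinas, lowest in mouse 61 on each side (limma F-test adjusted p = 0.218).

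The second list held 15 genes of glutamate supply, recycling and exchange, of which 13 were tested and none passed. Their differences, right minus left, were above 0 for 9 and below 0 for 4, with a median of 0.025 log2 units. Glul, the glutamine synthetase of Müller glia, averaged 607.5 ± 24.0 CPM in right retinas and 598.7 ± 55.9 CPM in left retinas. Slc7a11, whose product xCT exports glutamate in exchange for cystine (chromosome 3), varied more than any member, with a coefficient of variation of 38.3%. It had 5.43, 6.50, 6.80, 3.80 and 5.62 CPM in the right retinas of mice 61, 64, 65, 66 and 68, against 5.11, 6.19, 2.03, 4.28 and 1.53 CPM in the left ones. The left retinas of mice 65 and 68 stand below all others, and in the remaining mice the eyes were close. The differences were 1.37 and 1.39 log2 units in mice 65 and 68 and 0.075, 0.06 and −0.14 in mice 61, 64 and 66. Right minus left was 0.55 (SE 0.22; limma adjusted p = 0.9996), and −0.0013 without mice 65 and 68. Those mice held the large differences, so small differences without them were set in advance, also in the test of fellow eyes. In the test of fellow eyes Slc7a11 missed the threshold (adjusted p = 0.0586 in the F-test across all genes). It passed with libraries rescaled to a common median ratio (F-test adjusted p = 0.0392), without mouse 64 (0.0258) and without mouse 66 (0.0347). Without mice 65 and 68 its adjusted p in that test was 0.988. On simulated data 24.2% of the calls of the fellow-eye test were on genes given no change, against 5% allowed. The simulated noise of each gene was taken from its scatter in these data, which includes any real differences between fellow eyes. The share therefore cannot say how often a call in these data is false, and how far passing the test can be trusted was not settled. Over the 10 alternatives that kept the gene, its adjusted p ran from 0.0258 to 0.988. Markers of neighbouring tissues were unequal between the eyes too. Lens markers summed to 49.9, 24.8, 805.4, 113.9 and 46.3 CPM in the right retinas of mice 61, 64, 65, 66 and 68, against 34.35, 46.7, 7.56, 33.4 and 22.7 CPM in the left ones. The 6 connective tissue markers summed to 14.95, 13.5, 11.4, 14.2 and 18.0 CPM in right retinas and 11.7, 12.3, 7.60, 10.8 and 8.99 CPM in left retinas. The 7 pigment epithelium markers summed to 14.9, 11.1, 17.2, 14.0 and 14.3 CPM in right retinas and 13.2, 18.4, 9.45, 9.87 and 8.96 CPM in left retinas. All 3 sums were higher on the right in mice 61, 65, 66 and 68, of which Slc7a11 was lower on the right in mouse 66, and in mouse 64 the lens and pigment epithelium sums were lower on the right. The part of these tissues in the values of Slc7a11 was not tested. Got1, an aspartate aminotransferase, had 53.2, 41.7, 51.1, 51.0 and 47.6 CPM in right retinas and 59.5, 55.2, 43.9, 42.5 and 47.5 CPM in left retinas of mice 61 to 68 (adjusted p = 0.68 in the F-test of fellow eyes across all genes). Slc38a2, a glutamine carrier, had 35.6, 27.8, 34.2, 33.8 and 27.0 CPM in right retinas and 36.8, 32.6, 27.3, 28.9 and 28.1 CPM in left retinas (adjusted p = 0.987 in the same F-test across all genes). In both, as for Slc1a7, the right value was the higher one in mice 65 and 66 and the lower one in mice 61 and 64.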

How the data were processed

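Libraries of total RNA were made with a strand-specific kit after ribosomal RNA depletion, per the labels' protocols. The submitters' processing notes name STAR, Partek, GRCm38 and mm10. No version and no counting rule is given in the sources used here. The deposited values were read as CPM with 0.0001 added, from the values themselves: 90.8% to 91.7% of low values were whole multiples of a step (tolerance 0.1), too few to recover whole reads, so no count test was run. The number added was subtracted, and the 14210 genes averaging 1 CPM or more were tested as log2(CPM + 1) with limma 3.58.1 (R 4.3.3), variance trend included and the mouse as a block, with Benjamini-Hochberg adjustment at 0.05. Right against left was two-sided. Fellow eyes were compared by a one-sided F-test of the mean square of 5 differences against limma's fitted prior. A single data set was simulated for each of the 3 tests. Noise was drawn for each gene with its variance from the fit to these data, so real differences between fellow eyes enter it. Calls on genes given no change were 8.43% of calls for right against left, 7.75% between mice and 24.2% for fellow eyes, against 5% allowed. These shares also depend on the number and size of the changes planted. A single run gives no spread for these shares. Retinas that share a number are eyes of 1 animal, and their deviations from the side means correlated at 0.607, 0.143, 0.166, 0.172 and 0.311 in mice 61, 64, 65, 66 and 68. Levels between genes were divided by GENCODE M21 exon lengths, and the deposited coordinates of 31 of 31 members match that annotation once 1 base is taken off the deposited stop. Per-retina values are printed for the member of highest level per length in each class and the 3 members, and the 3 partner genes, with the lowest p in each test. Members and lists were chosen with earlier results of these data known. Not every related gene is reported here.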

Additional observations from a re-analysis of the deposited data

Results flagged for a closer look

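In 2 of the 62 groups formed by a member and a side, 1 retina lay far from the other 4 by Dixon's test (95% critical value 0.71), which chance does in about 1 of 20 groups. For Grik3 that retina was the left one of mouse 64, at 2.70 CPM, against 3.31 to 3.42 CPM in the other left retinas. For Grm4 it was the left one of mouse 65, at 1.88 CPM, against 2.09 to 2.16 CPM in the other left retinas.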

How the results depend on the processing

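No member was called in any of the 3 tests under any alternative run: other pseudocounts, other filters, rescaled libraries, each mouse left out, mice 65 and 68 left out and, for right against left, no replicate block (the pairing by mouse dropped), where 0 genes in all were called. Over all genes, calls between mice numbered 81 and fell to 41 without mice 65 and 68, with 23 to 88 when 1 mouse was left out (23 without mouse 61, 53 without mouse 66 and 39 without mouse 68). Calls between fellow eyes numbered 48, 19 among genes of at least 5 CPM and 4 without mice 65 and 68, with 23 to 54 when 1 mouse was left out (30 without mouse 65 and 23 without mouse 68). Without mice 65 and 68 the right-minus-left difference changed sign for Gria2 (0.0011), Grm2 (−0.07), Grm3 (0.025), Grm4 (−0.048), Slc1a1 (−0.039), Slc1a2 (−0.027), Slc17a6 (0.014) and Slc7a11 (−0.0013), in each case without a call. Leaving out 1 mouse changed the sign of 30 of 135 differences, whose ranges then were −0.021 to 0.012 for Gria2, −0.031 to 0.014 for Gria3, −0.011 to 0.0038 for Gria4, −0.031 to 0.0013 for Grik1, −0.037 to 0.048 for Grik3, −0.072 to 0.037 for Grik5, −0.062 to 0.066 for Grid1, −0.048 to 0.045 for Grm2, −0.12 to 0.014 for Grm3, −0.043 to 0.048 for Grm4, −0.0098 to 0.046 for Grm5, −0.061 to 0.0017 for Grm7, −0.01 to 0.049 for Slc1a1, −0.0104 to 0.021 for Slc1a2, −0.13 to 0.028 for Slc1a7, −0.042 to 0.00502 for Slc17a6, −0.072 to 0.0087 for Slc17a7 and −0.032 to 0.046 for Slc17a8. Causes were not tested. The depth of 8 to 26 implied counts per library limits Grin3b.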
